A study of Mus musculus with 22 samples.

Results

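The genes that encode the mitochondrial respiratory chain and the ATP synthase were followed across 22 RNA sequencing libraries made from primary microglia of the mouse, which are the macrophages that reside in brain tissue. They were chosen by symbol: Ndufa, Ndufb, Ndufc, Ndufs or Ndufv with a digit, Sdha to Sdhd, and every symbol that starts with Uqcr, Cox4 to Cox8 or Atp5. This gave 79 of the 15725 symbols in the series table, 37 of complex I, 4 of complex II, 8 of complex III, 15 of complex IV and 15 of complex V. Of the 79, 76 reached 1 FPKM in at least 3 libraries and were tested. The other members, Ndufa4l2, Cox4i2 and Cox7a1, did not, with no library above 1.14 FPKM. FPKM scales sequenced fragments to the length of the transcript and to the mapped fragments of the library, so levels of different genes can be set beside each other.

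The cortex of C57BL/6J mice aged 1 to 3 days, was used to grow mixed glia, microglia were shaken off, and polyadenylated RNA was sequenced. Lipopolysaccharide (LPS), the outer membrane component of Gram-negative bacteria that activates microglia, was given to all cultures at 100 ng/ml for 24 h, and no group without LPS was analysed here. LPS was the sole addition in 3 libraries. In 5 libraries (LPS+Baf A1) 10 nM bafilomycin A1 was added, an inhibitor of the vacuolar proton pump that acidifies lysosomes. In 6 libraries (LPS+CLA) 50 nM CLA was added, an abbreviation that the labels leave unexplained. In 5 libraries (LPS+siAtg5) 50 nM of an siRNA to Atg5 had been transfected for 48 h. A last group of 3 libraries, LPS+dNC, is set against LPS+siAtg5 by the design text. Its libraries also carry a transfection time of 48 h, but the labels do not spell out dNC and state no dose for it. Atg5 encodes a protein needed for the conjugation step that builds autophagosomes. No label says whether replicates were grown separately, so p-values here describe the spread between libraries, which may be technical.

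The respiratory chain passes electrons from NADH, through complex I, and from succinate, through complex II, by way of ubiquinone to complex III, cytochrome c and complex IV, where oxygen is reduced. Complexes I, III and IV pump protons across the inner mitochondrial membrane, and complex V, the ATP synthase, uses the gradient to make ATP. In macrophages and microglia, LPS is known to shift energy metabolism towards glycolysis. Some subunits of complexes I, III, IV and V are encoded by mitochondrial DNA. The table held 0 symbols of that kind, so the nuclear subunits alone are described.

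Microglial markers were present in every group. The 12 microglial marker genes summed to between 3459 and 5655 FPKM in each library, and none of them was at 0 in all libraries of a group, although Cx3cr1 had a mean of 0.18 FPKM in LPS+dNC and Tmem119 one of 1.77 FPKM in LPS. Summed markers of several other cell types, though not of all, were higher in LPS+siAtg5 than elsewhere. The 12 astrocyte markers summed to between 331 and 381 FPKM there against at most 28.8 in any other library. The 9 neuronal markers summed to between 54.1 and 67.6 against at most 16.4. The 9 fibroblast, mural and endothelial markers in the table summed to between 93.7 and 126 against at most 30.7. Of these 9, Dcn, Lum and Pecam1 had higher means in LPS+CLA than in LPS+siAtg5, and the rest were highest in LPS+siAtg5, with Acta2 at 47.7 FPKM. The oligodendrocyte lineage sum was 102 to 107 FPKM in LPS+siAtg5 and at most 92.8 elsewhere. In LPS+siAtg5 against LPS+dNC, 12 of 12 tested astrocyte markers, 6 of 6 neuronal markers and 9 of 12 microglial markers were higher, where 59.6% of all genes were. The 7 markers of border macrophages and monocytes summed to between 188 and 245 FPKM in LPS+Baf A1 and between 162 and 285 in LPS+CLA against 106 to 119 in LPS. In LPS+siAtg5 they summed to only 25.4 to 33.0 FPKM, and in LPS+dNC to 16.4 to 59.0. Pf4 made up most of that sum, with Cd163 and Lyve1 at no more than 0.03 FPKM on average in every group, and the part of these cells in the results below was not tested. Atg5 itself was lower in LPS+siAtg5 (13.1 ± 0.37 FPKM, SD, n = 5) than in LPS+dNC (22.3 ± 1.67, n = 3), with a log2 difference of -0.73 (SE 0.048, limma adjusted p = 4.05e-12). In bulk RNA, a change in the number of cells of a type and a change in RNA per cell cannot be told apart. LPS replicate 3, LPS+dNC replicate 1 and LPS+CLA replicate 2 stood apart: over all genes tested, log2 differences from libraries of the same group had SDs between 0.267 and 0.388 for these 3, against 0.138 to 0.187 for all other pairs. The count of genes called in each comparison below is also given without them.

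Within LPS alone, the typical gene of complexes IV and V was the most abundant and that of complex I the least. The median gene of complex I was at 28.3 FPKM, that of complex II at 54.2, complex III at 51.3, complex IV at 74.3 and complex V at 70.3 FPKM. The gene with the highest level of each complex was Ndufb8 of the complex I membrane arm (62.8 ± 4.54 FPKM, SD, n = 3), the iron-sulfur subunit gene Sdhb (76.0 ± 5.86), the complex III gene Uqcrb (90.3 ± 6.42), Cox8a of cytochrome c oxidase (227 ± 15.9) and Atp5b, which encodes the catalytic beta subunit of the ATP synthase (303 ± 8.07). Ndufa4 is counted with complex I by its name, although its protein is known as a subunit of complex IV. Cox7a2l, counted with complex IV, is known for joining complexes III and IV into supercomplexes.

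Many promoters of these genes are known to bind nuclear respiratory factor 1 (NRF1), which binds a palindrome rich in G and C. RefSeq promoters on GRCm38.p6, from 250 bases before to 50 bases after the start, were matched for 64 of the 79 members (69 promoters). The letters GCGCATGCG, searched on both strands, were in 11.6% of the members' promoters, against 1.8% of all 32851 promoters and 3.7% of those of the genes tested. The YY1 letters AAGATGGCG were in 10.1% of the members' promoters, against 1.4% of all and 3.1% of those of genes tested. CCGGAAGT, the core bound by ETS factors such as GABP, was in 7.2% against 3.9% and 8.3%, and TCAAGGTCA, bound by estrogen-related receptors, was in 2.9% against 0.4% and 0.3%. A match is a description of the letters and not a measured binding site. Stretches of 120 bases are shown for 4 genes with an NRF1 match whose levels are described below, with the matched letters in capitals. In the first 3, GCGCATGCGC holds the motif once on each strand in overlapping positions.
Ndufa11: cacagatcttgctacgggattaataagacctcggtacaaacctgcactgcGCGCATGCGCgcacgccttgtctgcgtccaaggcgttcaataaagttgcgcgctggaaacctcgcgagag
Uqcrc1: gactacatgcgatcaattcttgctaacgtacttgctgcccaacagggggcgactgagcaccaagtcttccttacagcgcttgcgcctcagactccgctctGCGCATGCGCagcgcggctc
Cox6a1: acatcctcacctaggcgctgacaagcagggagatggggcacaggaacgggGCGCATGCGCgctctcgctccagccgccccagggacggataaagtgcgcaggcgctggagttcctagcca
Atp5l: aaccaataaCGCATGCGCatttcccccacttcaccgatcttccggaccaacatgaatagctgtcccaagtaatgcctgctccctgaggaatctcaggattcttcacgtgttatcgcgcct
The Ndufa11 stretch is chr17:56717652-56717771 on the plus strand and the Uqcrc1 stretch chr9:108936578-108936697 on the plus strand. The Cox6a1 stretch is chr5:115349051-115349170 and the Atp5l stretch chr9:44920873-44920992, both on the minus strand. By complex, NRF1 letters were in 2 of 34 promoters of complex I, 0 of 3 of complex II, 2 of 5 of complex III, 1 of 11 of complex IV and 3 of 16 of complex V.

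The set as a whole was lowest with LPS alone. The mean log2(FPKM + 1) over the 76 genes was 5.29, 5.40 and 5.54 in the LPS libraries. It ran from 5.73 to 5.86 in LPS+Baf A1, from 5.69 to 5.90 in LPS+dNC, from 5.83 to 6.03 in LPS+siAtg5 and from 5.78 to 6.02 (median 5.97) in LPS+CLA. All 19 other libraries therefore lay above all 3 LPS libraries. Summed over the 76 genes, the FPKM were 4320 ± 345 (SD) in LPS, 5738 ± 185 in LPS+Baf A1, 6412 ± 364 in LPS+CLA, 5882 ± 423 in LPS+dNC and 6111 ± 301 in LPS+siAtg5, which was between 0.851% and 1.34% of all FPKM in a library. Among the 4 groups without LPS+dNC, the LPS mean was the lowest for 75 of the 76 genes, against 42.1% of all 11070 genes tested. The exception was Cox6a2, whose mean was lowest in LPS+siAtg5. With LPS+dNC included, LPS was lowest for 57 (against 24.7% of all genes) and LPS+dNC for 18 (against 32.5%), and LPS+dNC was highest for 28 (against 20.1%).

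**Figure D1:**
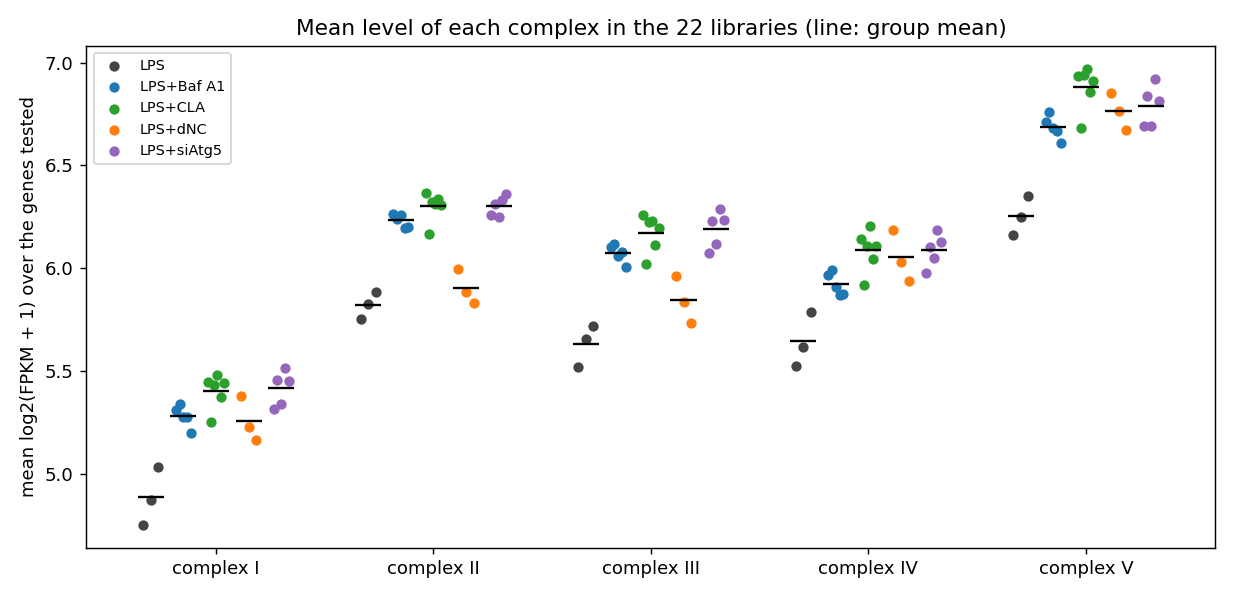
Mean log2(FPKM + 1) over the genes tested of each complex (vertical axis) in each of the 22 libraries (points, coloured by group), with the group mean as a line. LPS libraries are the lowest points of every complex except that LPS replicate 3 overlaps LPS+dNC in complex II, while LPS+dNC lies near LPS in complex II, between LPS (5.63) and LPS+Baf A1 (6.07) in complex III, with a mean of 5.84, and near the treated groups in complexes I, IV and V.

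Bafilomycin A1 went with higher levels of genes of all 5 complexes. In LPS+Baf A1 against LPS, 67 of the 76 genes were higher and 1 was lower at a Benjamini-Hochberg adjusted p under 0.05 in limma, while 32.7% of all genes tested were higher and 25.1% lower. The median log2 difference of the 76 was 0.39, with an SD between genes of 0.19, and that of all genes was 0.04. Higher calls numbered 33 of 36 for complex I, 4 of 4 for complex II, 7 of 8 for complex III, 10 of 13 for complex IV and 13 of 15 for complex V, with medians between 0.33 (complex IV) and 0.46 (complex III). For 60 genes every LPS+Baf A1 library lay above every LPS library, which held for 30.8% of all genes. Without the 3 libraries that stood apart, 70 were higher and 1 lower, and without LPS replicate 1 the count was 58.

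In complex I, all 21 genes counted with the membrane arm were higher, as were 6 of 8 of the NADH-binding N module and 6 of 7 of the ubiquinone-binding Q module. The membrane arm is taken here as every complex I gene by name outside the N and Q lists, so it includes Ndufa4 and Ndufa9. Ndufv3, an accessory subunit of the N module, was at 25.1, 26.3 and 29.7 FPKM in the LPS libraries and at 46.7, 49.1, 44.5, 46.5 and 45.5 FPKM in the LPS+Baf A1 libraries. Its difference of 0.76 (SE 0.063, adjusted p = 8.74e-10) was the largest of complex I, and the groups did not overlap. Ndufb8 differed by 0.45 (adjusted p = 4.31e-05). Ndufs4 and Ndufs1, of the N module, differed by 0.18 (adjusted p = 0.163) and 0.07 (adjusted p = 0.263) and were not called. Without LPS replicate 3, Ndufs4 differed by 0.33 and was called (adjusted p = 0.0136).

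Complex II, which is also the succinate dehydrogenase of the tricarboxylic acid cycle, has 4 subunits. Its membrane anchor gene Sdhd was at 46.7, 54.2 and 52.7 FPKM in the LPS libraries and at 80.4, 82.4, 79.0, 78.2 and 81.2 FPKM in the LPS+Baf A1 libraries. All 5 treated values lay above the LPS values, and the difference was 0.64 (SE 0.054, adjusted p = 1.18e-09). The other anchor gene, Sdhc, differed by 0.45, Sdhb by 0.42 and the flavoprotein gene Sdha by 0.13 (adjusted p = 0.0299), the smallest of the 4.

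In complex III, Uqcrc1, a core subunit gene, was at 65.1, 70.5 and 69.2 FPKM in the LPS libraries and at 86.4, 89.8, 92.7, 91.6 and 89.7 FPKM in the LPS+Baf A1 libraries, a difference of 0.40 (SE 0.049, adjusted p = 3.66e-07) with no overlap. The Rieske iron-sulfur gene Uqcrfs1 differed by 0.48 (adjusted p = 2.75e-08). Uqcrb, the complex III gene with the highest level under LPS, differed by 0.05 (adjusted p = 0.547) and was not called.

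The complex IV gene with the largest rise was Cox7a2l. It was at 70.1, 70.2 and 79.6 FPKM in the LPS libraries and at 126, 127, 121, 122 and 121 FPKM in the LPS+Baf A1 libraries. The log2 difference was 0.75 (SE 0.064, adjusted p = 1.69e-09), and no treated library reached down to the LPS values. Cox4i1, the ubiquitous isoform of subunit 4, differed by 0.52 (adjusted p = 1.91e-07), and Cox8a by 0.16 (adjusted p = 0.0151). Without LPS replicate 1 the Cox8a difference was 0.14 (adjusted p = 0.0833), without LPS replicate 2 it was 0.14 (adjusted p = 0.0784), and scaled by the median of gene ratios it was 0.11 (adjusted p = 0.19). Cox7c, a small membrane subunit gene, differed by 0.29 (adjusted p = 0.07) and was not called. It was called when these groups were fitted alone (adjusted p = 0.0127) and without the 3 libraries that stood apart (0.31, adjusted p = 0.0472). The 1 gene called lower was Cox6a2, the heart and muscle isoform of subunit 6a, at 1.08, 0.86 and 1.37 FPKM in the LPS libraries and at 0.50, 0.71, 0.37, 0.21 and 0.55 FPKM in the LPS+Baf A1 libraries. It reached 1 FPKM in 4 libraries, all of LPS or LPS+dNC, and so entered the test through groups in which it is high; its values are given as a description.

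In complex V, Atp5b was at 295, 302 and 311 FPKM in the LPS libraries and at 409, 399, 410.2, 417 and 404 FPKM in the LPS+Baf A1 libraries. The libraries of each group lay close together, the groups did not overlap, and the log2 difference was 0.43 (SE 0.037, adjusted p = 1.54e-09). Atp5a1, the alpha subunit gene that forms the catalytic head together with Atp5b, differed by 0.58 (SE 0.049, adjusted p = 1.08e-09). Atp5mpl and Atp5j were not called, at 0.32 (adjusted p = 0.0511) and 0.09 (adjusted p = 0.288). Atp5mpl was called under 5 of the alternatives, among them the groups fitted alone (adjusted p = 0.00187) and the data without LPS+Baf A1 replicate 4 (0.36, adjusted p = 0.0384). Without LPS replicate 3, Atp5j differed by 0.19 and was called (adjusted p = 0.0219).

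**Figure D2:**
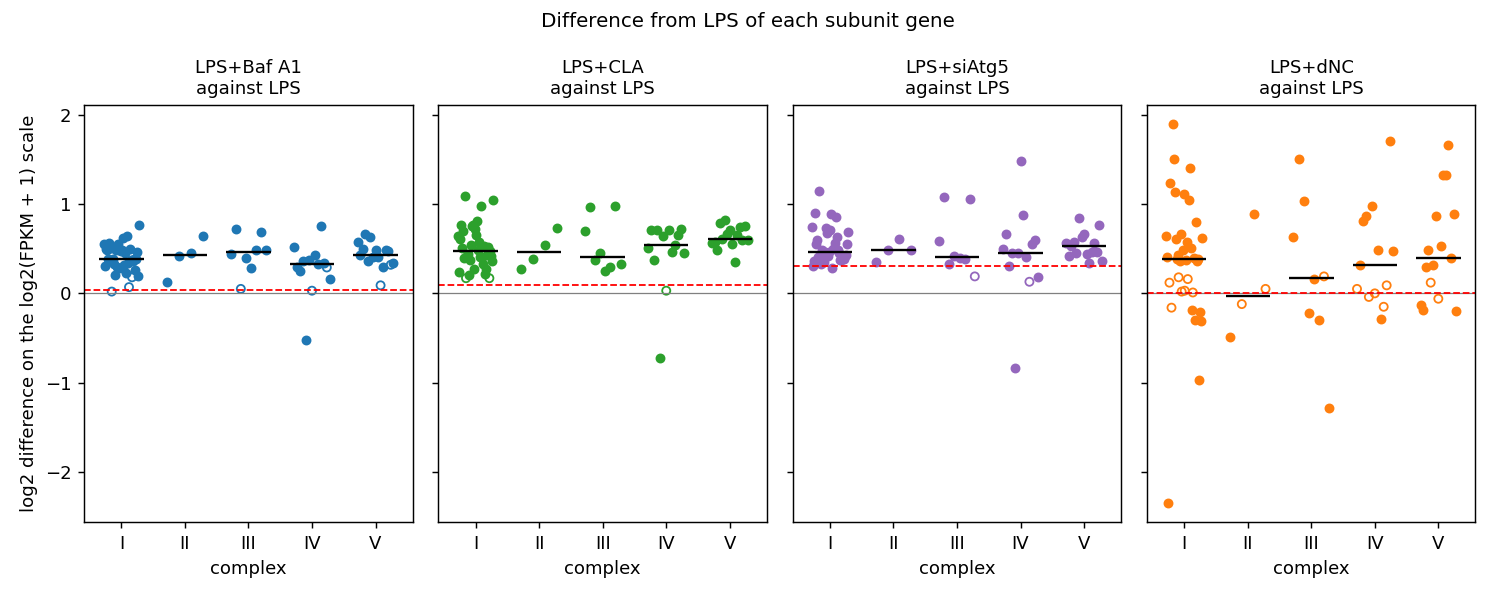
Log2 difference from LPS, on the log2(FPKM + 1) scale, of each of the 76 genes by complex in 4 groups. Filled points passed the adjusted p threshold, open points did not, the black line is the median of the complex and the red dashed line the median of all genes tested; the points lie close together in LPS+Baf A1 (SD 0.19), LPS+CLA (SD 0.26) and LPS+siAtg5 (SD 0.28) and far apart in LPS+dNC (SD 0.68).

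CLA also went with higher levels of these genes. In LPS+CLA against LPS, which uses the same LPS libraries as the bafilomycin comparison, 72 of the 76 were higher and 1 lower, against 40.4% higher and 22.6% lower of all genes tested. The median log2 difference was 0.54 (SD between genes 0.26), and 0.09 over all genes. Complex V rose in full (15 of 15, median 0.61), as did complexes II (4 of 4, 0.46) and III (8 of 8, 0.41). Complex I had 34 of 36 higher (0.48) and complex IV 11 of 13 (0.54). Every LPS+CLA library lay above every LPS library for 63 genes, against 32.7% of all genes. Without the 3 libraries that stood apart, 74 were higher and 1 lower, against 41.4% and 26.4% of all genes.

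Ndufa4 had the largest rise. It was at 40.4, 36.1 and 43.6 FPKM in the LPS libraries and between 74.3 and 93.8 FPKM (median 87.9) in the LPS+CLA libraries. The lowest CLA library was well above the highest LPS library, and the log2 difference was 1.09 (SE 0.067, adjusted p = 2.6e-12). Ndufv3 rose by 1.04 (SE 0.061, adjusted p = 1.36e-12), from 25.1, 26.3 and 29.7 FPKM in the LPS libraries to between 51.0 and 63.7 FPKM (median 55.1) in the LPS+CLA libraries. The complex I genes not called were Ndufs7, a core subunit of the Q module (0.17, adjusted p = 0.0691), and Ndufa5 of the same module (0.17, adjusted p = 0.213). Ndufs7 was called without LPS replicate 3 (0.24, adjusted p = 0.0296) and without LPS+CLA replicate 3 (0.20, adjusted p = 0.0406), and Ndufa5 without LPS+CLA replicate 2 (0.25, adjusted p = 0.0413). Sdhd and Sdhc differed by 0.73 and 0.54.

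Uqcrh, the hinge subunit gene of complex III, which contacts cytochrome c1, was at 48.4, 53.0 and 56.7 FPKM in the LPS libraries and between 87.7 and 115 FPKM (median 108) in the LPS+CLA libraries, a difference of 0.98 (SE 0.082, adjusted p = 5.78e-10) with no overlap. Uqcrc1 differed by 0.45 (adjusted p = 2.08e-08). In complex IV, Cox6a1, the isoform of subunit 6a found in most tissues, was at 135, 143 and 165 FPKM in the LPS libraries and between 223 and 254 FPKM (median 245) in the LPS+CLA libraries. Its difference was 0.71 (SE 0.064, adjusted p = 1.79e-09). Its muscle isoform Cox6a2, which entered the test through LPS and LPS+dNC libraries, was the 1 gene called lower, between 0.13 and 0.52 FPKM (median 0.27) in the LPS+CLA libraries. Cox7b, another small subunit gene, differed by 0.65 (adjusted p = 3.36e-08), and Cox6b2 was at or near 0 in both groups.

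Atp5g1, 1 of 3 genes for the proton-carrying c subunit of the ATP synthase, was at 34.8, 36.2 and 37.3 FPKM in the LPS libraries and between 58.5 and 69.9 FPKM (median 64.1) in the LPS+CLA libraries, without overlap. The log2 difference was 0.82 (SE 0.063, adjusted p = 1.32e-10), and the other c subunit genes, Atp5g2 and Atp5g3, differed by 0.66 and 0.71. Atp5b, at between 433 and 470.0 FPKM (median 447) in the LPS+CLA libraries, differed from LPS by 0.57 (SE 0.036, adjusted p = 4.13e-12).

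The libraries with CLA and with bafilomycin A1 were also set against each other. In LPS+CLA against LPS+Baf A1, 36 of 76 were higher with CLA and 3 lower, where 35.4% of all genes were higher and 19.0% lower. The median difference was 0.14, and 0.06 over all genes. Libraries of the groups did not overlap for 11 higher and 3 lower genes, against 24.5% and 15.1% of all genes. Complex V had 11 of 15 higher and the Q module of complex I 0 of 7. Ndufa4 had the largest difference: it was at 56.6, 60.3, 54.7, 58.6 and 55.8 FPKM in the LPS+Baf A1 libraries, below all LPS+CLA libraries (log2 difference 0.59, SE 0.057, adjusted p = 1.36e-08). Cox7a2l and Uqcrfs1 were lower with CLA (-0.21, adjusted p = 0.00225 and -0.19, adjusted p = 0.000454), as was Ndufs3 of the Q module (-0.16, adjusted p = 0.0123). The count of higher genes was 19, and of lower genes 8, when libraries were scaled by the median of their gene ratios (against 26.4% and 25.2% of all genes, so the higher count was then at the background). With quantile normalization they were 25 and 5, against 27.9% and 23.3%. Without the 3 libraries that stood apart they were 47 and 3, against 41.7% and 21.6%.

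Knockdown of Atg5 set against its transfection comparator gave differences in both directions. In LPS+siAtg5 against LPS+dNC, 36 of the 76 were higher and 23 lower, against 59.6% higher and 21.6% lower of all genes tested. The median log2 difference was 0.11, below the 0.34 of all genes, and single genes ran from -1.49 to 2.71 (SD between genes 0.68). The N module of complex I had 6 of 8 higher and 0 lower, the Q module 2 higher and 2 lower of 7, and the membrane arm 6 higher and 8 lower of 21. Complex II had 3 higher and 1 lower of 4, complex III 5 and 2 of 8, complex IV 7 and 6 of 13, and complex V 7 and 4 of 15. Without the libraries that stood apart the counts were 38 and 23, against 60.0% and 22.7% of all genes. Scaling by the median of gene ratios moved the median of all genes from 0.34 to 0.06 and the calls over all genes from 6594 higher and 2394 lower to 4699 and 3981. The members were then 23 higher and 38 lower, and their median minus that of all genes was -0.23 before and -0.27 after that scaling, and 0.11 with quantile normalization.

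For several genes with wide differences, the 3 LPS+dNC libraries stood apart from all others. Ndufa11, which encodes an accessory subunit of the complex I membrane arm, was at 8.62, 8.85 and 7.65 FPKM in the LPS+dNC libraries and at 57.4, 63.9, 60.8, 59.4 and 59.8 FPKM in the LPS+siAtg5 libraries. It was at 42.8, 47.3 and 49.8 FPKM in the LPS libraries and at 66.4, 67.1, 68.3, 65.3 and 64.6 FPKM in the LPS+Baf A1 libraries. All 19 libraries outside LPS+dNC thus lay far above the LPS+dNC values, and LPS+siAtg5 differed from LPS+dNC by 2.71 (SE 0.056, adjusted p = 6.46e-21). Uqcrq, a small subunit gene of complex III, was at 34.8, 28.5 and 24.1 FPKM in the LPS+dNC libraries and at 72.5, 87.9, 79.8, 85.5 and 84.6 FPKM in the LPS+siAtg5 libraries (log2 difference 1.47, SE 0.108, adjusted p = 2.52e-11). Ndufs8, which encodes an iron-sulfur subunit of the Q module, was at 13.7, 9.68 and 9.95 FPKM in the LPS+dNC libraries and at 30.3, 30.8, 28.3, 32.0 and 31.8 FPKM in the LPS+siAtg5 libraries (log2 difference 1.40, SE 0.097, adjusted p = 9.02e-12). Both genes were also higher in LPS alone than in LPS+dNC, with Uqcrq at 58.92, 74.98 and 82.57 FPKM and Ndufs8 at 19.7, 22.8 and 25.5 FPKM.

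Other genes stood on the opposite side. Ndufa3, a small accessory subunit gene of the membrane arm, was at 109, 87.0 and 85.7 FPKM in the LPS+dNC libraries and at 25.9, 35.2, 27.0, 42.3 and 35.2 FPKM in the LPS+siAtg5 libraries. With LPS alone it was at 22.2, 21.6 and 29.8 FPKM, so LPS+dNC was the group that differed from both (log2 difference -1.49, SE 0.142, adjusted p = 2.56e-09 for LPS+siAtg5 against LPS+dNC). Cox7c was at 319.9, 269 and 262 FPKM in the LPS+dNC libraries and at 111, 137, 125, 163 and 123 FPKM in the LPS+siAtg5 libraries (log2 difference -1.11, SE 0.133, adjusted p = 1.01e-07). Atp5k, the gene of subunit e at the dimer interface of the ATP synthase, was at 72.5, 62.9 and 67.1 FPKM in the LPS+dNC libraries and at 26.6, 35.2, 23.3, 47.3 and 26.8 FPKM in the LPS+siAtg5 libraries (log2 difference -1.10, SE 0.182, adjusted p = 1.09e-05). In each case the LPS+dNC libraries lay above all others. Atp5j of the stalk and Atp5j2 of the membrane part went the same way (-0.99, adjusted p = 2.11e-11 and -0.86, adjusted p = 1.65e-09).

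Further members called lower in LPS+siAtg5 than in LPS+dNC were Ndufa13 (-0.68, adjusted p = 1.52e-07) and Ndufb4 (-0.65, adjusted p = 5.59e-07) of complex I, Sdhc (-0.28, adjusted p = 0.00107), Uqcrb (-0.70, adjusted p = 7.2e-09) and Uqcr11 (-0.42, adjusted p = 0.00355) of complex III, and Cox6b1 (-0.53, adjusted p = 1.17e-06) and Cox5b (-0.50, adjusted p = 2.04e-06) of complex IV. Called higher were the catalytic subunit genes of complex II, Sdha and Sdhb. Sdha was at 41.3, 41.8 and 38.3 FPKM in the LPS+dNC libraries and at 75.5, 70.8, 73.3, 73.5 and 72.6 FPKM in the LPS+siAtg5 libraries, which did not overlap (log2 difference 0.84, SE 0.052, adjusted p = 1.1e-12), and Sdhb differed by 0.61 (adjusted p = 7.48e-08). Uqcrfs1 (0.69, adjusted p = 1.51e-11), Cox7a2 (0.71, adjusted p = 4.86e-09), Atp5b (0.61, adjusted p = 8.68e-13) and Atp5a1 (0.69, adjusted p = 1.33e-11) were also higher. Ndufa7, Ndufc2, Uqcr10, Atp5l and Atp5h, all among the more abundant genes not called, had differences between -0.09 and 0.12. Without LPS+dNC replicate 1, Ndufc2 differed by 0.26 and was called (adjusted p = 0.00633). Under median-of-ratios scaling Ndufa7 (-0.21), Uqcr10 (-0.36), Atp5l (-0.26) and Atp5h (-0.41) were called lower, and under quantile normalization Atp5l was called higher (0.18).

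In LPS+dNC itself, 45 of the 76 genes were higher and 14 lower than in LPS, against 29.0% higher and 28.1% lower of all genes tested, with a median of 0.38 and an SD between genes of 0.68 (0.60 over all genes). Fitted on these groups alone, 43 were higher and 6 lower, against 21.6% and 20.4% of all genes. Without the 3 libraries that stood apart, the counts were 46 and 15, against 32.3% and 30.6%. All 3 LPS+dNC libraries lay above all 19 others for 16 genes (21.1%, against 11.1% of all genes) and below all of them for 12 (15.8%, against 15.2%). The 12 were Ndufa11, Uqcrq, Ndufs8, Sdha, Cox7a2, Ndufv2, Uqcrfs1, Atp5a1, Uqcrc1, Ndufv1, Atp5b and Ndufs1. The 16 were Ndufa3, Cox7c, Atp5k, Atp5j, Ndufa5, Atp5j2, Ndufa13, Uqcrb, Ndufa4, Uqcr11, Ndufb9, Ndufb4, Cox6b1, Cox5b, Ndufs5 and Sdhc. Their transcripts had a median length of 692 bases, against 1657 bases for the 12, and the part of length in the difference was not tested. At least 20% of the transcript matched another gene for Cox7c, Atp5k, Uqcrb, Ndufs5, Cox5b, Ndufb4, Uqcr11, Ndufa13, Ndufb9 and Atp5j of the 16. The rest of the 16 shared 0%, and none of the 12 shared more than 9.5%. How shared sequence was measured is given below, and its part in the difference was not tested. The column headers of LPS+dNC name no unit, unlike those of the other 19 libraries, and no source used here says whether these libraries were processed in the same way. Group and processing cannot be told apart for them.

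**Figure D3:**
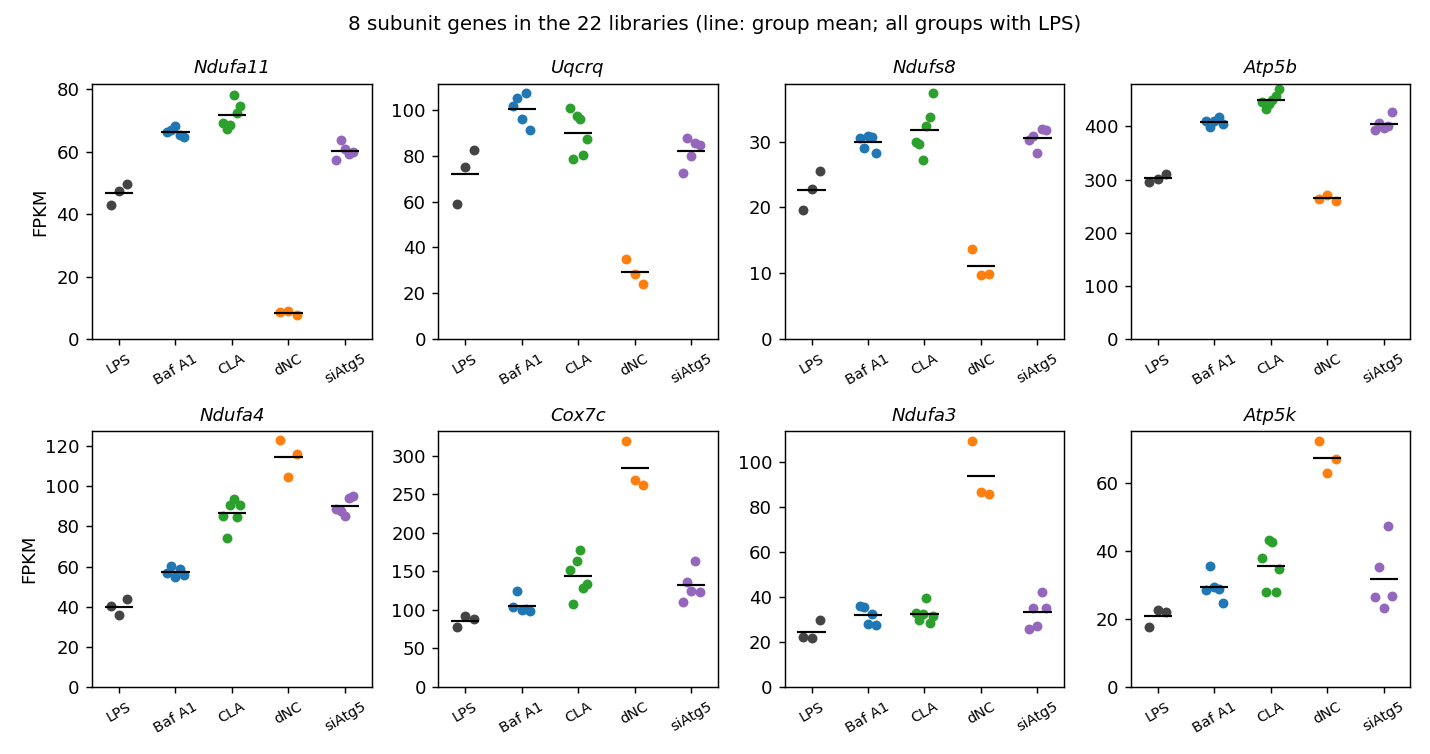
FPKM (vertical axes, from 0) of 8 genes in each of the 22 libraries, with the group mean as a line. LPS+dNC lies below all other libraries for Ndufa11, Uqcrq, Ndufs8 and Atp5b and above them for Ndufa4, Cox7c, Ndufa3 and Atp5k; for Ndufa4 the remaining groups order as LPS (mean 40.0), LPS+Baf A1 (57.2), LPS+CLA (86.6) and LPS+siAtg5 (90.2).

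Against LPS alone, the knockdown libraries were higher for almost all genes of the set, as they were for most genes of the table. In LPS+siAtg5 against LPS, 73 of the 76 were higher and 1 lower, against 61.2% higher and 15.6% lower of all genes tested. The median difference was 0.46 for the 76 and 0.31 for all genes, so the set stood 0.15 above all genes, 0.09 above them without LPS replicate 1 and 0.24 without LPS replicate 3. Without the 3 libraries that stood apart, 75 were higher and 1 lower, against 60.3% and 17.9% of all genes. Scaling by the median of gene ratios brought the median of all genes to 0.01, that of the set to 0.12 and the calls to 30 higher and 3 lower, against 35.8% higher and 34.6% lower of all genes, so that the higher count was near the background. Cox6b2, described with the isoforms below, entered the test only through the LPS+siAtg5 libraries. Among the other genes the highest rises were Ndufa4 (log2 difference 1.15, SE 0.069, adjusted p = 1.13e-12), Uqcr11 (1.08) and Uqcrh (1.06). Atp5b differed by 0.42, Sdhb by 0.49 and Ndufb8 by 0.50, and none of these 3 passed the test under that scaling. Uqcrb differed by 0.33 and Cox8a by 0.18, which became -0.02 and -0.17. The astrocyte, neuronal and mesenchymal markers given above moved with this group, and their part in the result was not tested.

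The comparisons with LPS share their control libraries, and their values are set side by side. Relative to all genes tested, the median of the set was higher by 0.36 with bafilomycin A1, by 0.45 with CLA and by 0.15 with siAtg5, and by 0.38 in LPS+dNC. The bafilomycin effect (against LPS) and the knockdown effect (against LPS+dNC) share no library. Their difference was positive for 40 genes and negative for 15, against 20.4% and 52.3% of all genes. Without the 3 libraries that stood apart the counts were 40 and 16, against 21.8% and 54.3%. The most positive were Ndufa3 at 1.86, Atp5k at 1.58 and Cox7c at 1.40, and the most negative were Ndufa11 at -2.21, Cox6b2 at -1.45, Ndufs8 at -1.01 and Uqcrq at -0.99. LPS+dNC stood apart from all other libraries for each of these except Cox6b2, for which LPS+siAtg5 did. Cox6b2 entered the test only through the LPS+siAtg5 libraries, so its place among these genes is a description.

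Transcripts of the set are short, and short transcripts of the whole table were also higher. The median length of the main transcript was 823.5 bases for the members and 3023.5 bases for all genes tested. Among genes under 1000 bases, the median difference with bafilomycin A1 was 0.33 for all 620 genes and 0.36 for the 46 members. In the class from 1000 to 2000 bases it was 0.15 for 2297 genes and 0.48 for 23 members. With CLA, the values were 0.41 and 0.58 in the shorter class and 0.22 and 0.49 in the next. For LPS+siAtg5 against LPS they were 0.43 and 0.46, and 0.35 and 0.45. The medians of all genes in a class include the members themselves. Members of the shortest class had medians close to that of their whole class with bafilomycin A1 and siAtg5. Those of 1000 to 2000 bases lay further from the median of their class. In LPS+dNC against LPS the medians were 0.38 for all genes and 0.52 for members under 1000 bases, and 0.11 and 0.03 from 1000 to 2000 bases. Across the 76 members, Spearman's rho between length and difference was 0.09 with bafilomycin A1, -0.20 with CLA and -0.41 in LPS+dNC, and -0.26, -0.23 and -0.23 across the 11050 genes with a length. These are correlations across genes, which are not independent replicates. The part of length in the results was not tested.

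**Figure D4:**
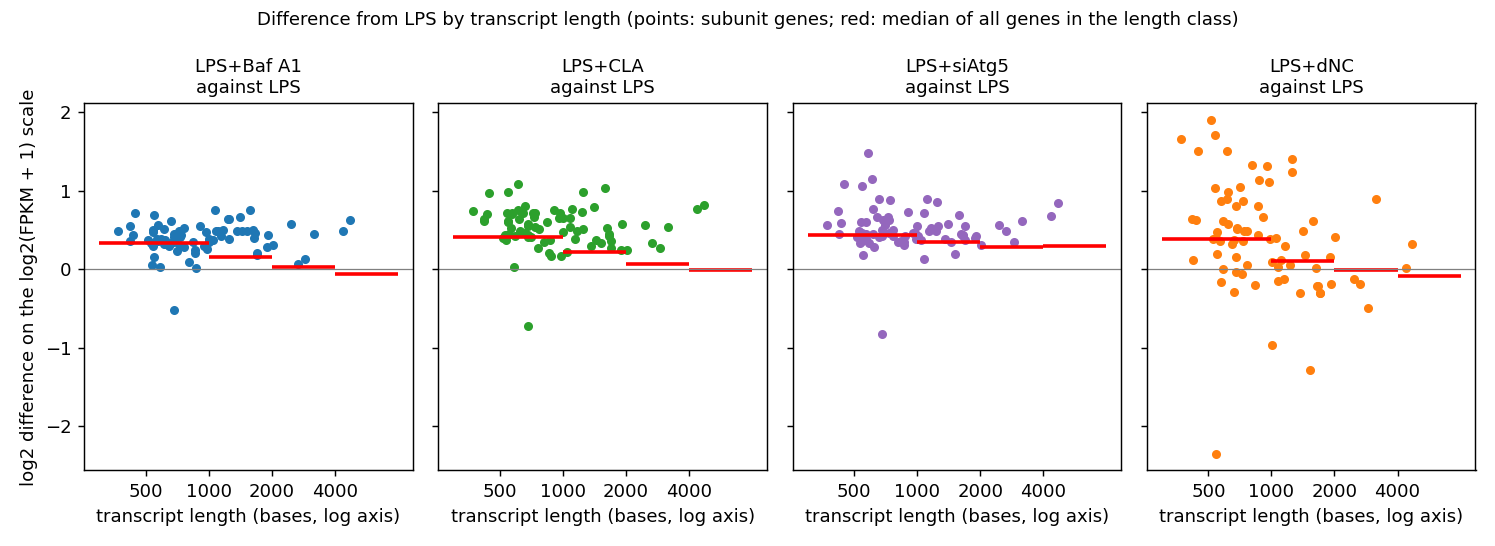
Log2 difference from LPS, on the log2(FPKM + 1) scale, of each of the 76 genes (points) against the length of its main transcript in bases (log axis), with the median of all genes of each length class in red. The red medians fall from 0.33 to -0.06 with bafilomycin A1 and from 0.38 to -0.09 in LPS+dNC, and most points between 1000 and 2000 bases lie above the red line with bafilomycin A1, CLA and siAtg5.

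Copies of these genes elsewhere in the genome could also take or lend fragments. For 30 of the 79 members, at least 20% of the main transcript matched transcripts of another gene, mostly processed pseudogenes. The match was at 95% identity or more over at least 75 bases. Atp5o, Atp5g2, Atp5l, Ndufs3, Atp5h, Uqcrb, Cox7c, Atp5k and Cox7a2l were among these 30, and the values of all 30 are uncertain. Some matches were to overlapping genes, such as Emc8 beside Cox4i1 and Gabpa beside Atp5j, and strand was not stated. Among the 46 tested members under 20%, 40 were higher and 1 lower with bafilomycin A1, against 32.7% and 25.1% of all genes. With CLA, 42 were higher and 1 lower, against 40.4% and 22.6%. In LPS+siAtg5 against LPS+dNC, 24 were higher and 12 lower, against 59.6% and 21.6%, so the higher share was below that of all genes.

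Tissue isoforms were low throughout. Cox6b2, the testis isoform of subunit 6b, was at 1.36, 1.67, 1.91, 2.95 and 2.02 FPKM in the LPS+siAtg5 libraries. It was at 0, 0.16 and 0 FPKM in the LPS libraries and at 0, 0.16 and 0 FPKM in the LPS+dNC libraries, so the knockdown libraries lay above all others, and none but these reached 1 FPKM. Cox6a2 was at 0.12, 0.13, 0.18, 0.14 and 0.31 FPKM in the LPS+siAtg5 libraries and at 1.48, 1.24 and 0.52 FPKM in the LPS+dNC libraries. Both passed the filter only through the groups in which they are high, so their differences are given as values and no test of them is relied on. The counts of genes called above, over the set and for complex IV, still include both, and their calls there are no evidence of a change. Cox4i2, the isoform of subunit 4 linked to low oxygen, did not exceed 0.44 FPKM, and Ndufa4l2, another gene linked to low oxygen, did not exceed 0.12 FPKM.

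Genes around the respiratory chain were counted in the same fit, and the shares of all genes to set beside them were 32.7% higher and 25.1% lower with bafilomycin A1, 40.4% and 22.6% with CLA, 59.6% and 21.6% in LPS+siAtg5 against LPS+dNC, and 61.2% and 15.6% in LPS+siAtg5 against LPS. Of 18 genes of the tricarboxylic acid cycle, 14 were higher and 1 lower with bafilomycin A1, 16 and 0 with CLA, 17 and 0 in LPS+siAtg5 against LPS+dNC, and 18 and 0 against LPS. Cs, citrate synthase, rose from a mean of 56.3 to 79.0 FPKM with bafilomycin A1 (0.48, adjusted p = 8.31e-09), and Dlat of the pyruvate dehydrogenase complex by 0.72. The isocitrate dehydrogenase genes Idh3a, with CLA, and Idh2, in LPS+siAtg5 against LPS, rose by 0.98 and 1.74. Of 78 mitochondrial ribosome genes, 54 were higher and 3 lower with bafilomycin A1, 66 and 0 with CLA, and 44 and 18 in LPS+siAtg5 against LPS+dNC, the last close to the shares of all genes. Mrps34 rose by 0.85 with bafilomycin A1 and Mrpl12 by 1.12 with CLA. Mrpl17 differed by 3.52 and Mrps16 by -2.12 in LPS+siAtg5 against LPS+dNC, where the LPS+dNC means were 3.85 and 22.7 FPKM.

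Assembly factors, which insert cofactors and join subunits, were called in both directions. Of 45 tested, 21 were higher and 3 lower with bafilomycin A1, 32 and 4 with CLA, and 23 and 10 in LPS+siAtg5 against LPS+dNC, where the higher share was below that of all genes. Sco1, which delivers copper to complex IV, fell by 0.52 with bafilomycin A1 and by 1.04 with CLA (adjusted p = 1.79e-10), from 11.4 FPKM to means of 7.67 and 5.00 FPKM. Uqcc2, an assembly factor of complex III, rose by 1.01 with CLA. Among 16 genes of electron carriers and of ATP and phosphate exchange, 8, 14 and 13 were higher in the same 3 comparisons and 0, 0 and 1 lower. Slc25a4, an ADP and ATP carrier of the inner membrane, rose from a mean of 11.6 to 34.7 FPKM with bafilomycin A1 (adjusted p = 1.37e-06), and Etfb, of the electron transfer flavoprotein, rose by 1.33 with CLA. A further 3 subunit or inhibitor genes not matched by name, Ndufab1, Cyc1 and Atpif1, were higher with bafilomycin A1 (differences of 0.41, 0.31 and 0.42) and with CLA (3 of 3). Of 14 regulators of mitochondrial gene expression, 4 were higher and 2 lower with bafilomycin A1, a share of higher genes below that of all genes, and 7 and 0 with CLA. The 2 lower were Gabpb1 (-0.34, adjusted p = 0.000275), a subunit of the factor GABP, and Pprc1 (-0.32, adjusted p = 0.00616), a coactivator. With CLA, Nrf1 differed by 0.70 (means of 12.9 and 7.54 FPKM) and Yy1 by 0.35. Esrra differed by 0.33 with bafilomycin A1. Ppargc1a, a coactivator of these factors, had a mean of 1.36 FPKM in LPS+siAtg5 against 0.03 in LPS. It passed the filter only through the LPS+siAtg5 libraries, so these values are a description. Markers of astrocytes and neurons were also higher in that group, and their part in the Ppargc1a level was not tested.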

How the data were processed

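RNA sequencing of 22 libraries was used, with each library placed in its group by its title. The authors deposited FPKM values. The unit stands in 19 column headers, per the file headers, and was inferred from the values for the 3 LPS+dNC columns, whose headers give none. Tools named in the submitters' processing notes are CASAVA 1.7, fastp 0.18.0, Bowtie2 2.2.8, HISAT2 and StringTie 1.3.1. The sources used here do not give their order, the genome build or the annotation. The table had 15726 lines, 1 of them a second line for a symbol, which was left out, and 0 value columns without a sample. Columns summed to between 469750 and 575125 FPKM. Without read counts, depth is unknown, so values have no counting interval.

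Values were analysed as log2(FPKM + 1), where changes at low levels come out smaller than they are. The filter of at least 1 FPKM in at least 3 libraries left 11070 genes for 1 limma 3.58.1 fit in R 4.3.3 with 5 group means (trend and robust, 17 residual degrees of freedom). Each comparison was a contrast with p-values adjusted over all genes by the Benjamini-Hochberg method, called at an adjusted p under 0.05. The fit was also run on simulated data with 200 changed genes. Those data had no shift over all genes and no library that stood apart, so that run cannot tell how the fit handles these features. Of the tests planned for either kind of table, the one for normalized values applied. No test was run over the set as a list.

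The members, gene lists, tests and alternatives were chosen with earlier results of these data known. Named were, for each comparison of the design text and each complex, the 2 called members with the smallest adjusted p per direction, up to 2 not called with the highest mean, up to 3 called against the direction of their complex, the most abundant member, the isoforms, and up to 2 per direction of each other list. One member that the rule names is not reported here. Other members were named for the LPS+dNC libraries after their values were seen. Transcript lengths came from the mouse reference annotation (the main transcript of each gene), shared sequence from BLAST+ 2.17.0, and promoters from RefSeq on GRCm38.p6. Alternatives were a pseudocount of 0.1, a filter of 5 FPKM or none, median-of-ratios scaling, quantile normalization, array weights, the compared groups alone, the replicate block, and leaving out libraries.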

Additional observations from a re-analysis of the deposited data

Results flagged for a closer look

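Of 156 groups of values tested for a library far from the rest, 8 had one. Chance alone gives about 1 in 20. In LPS+Baf A1, replicate 2 was the highest library for Cox7c (124.72 FPKM, the others 98.02 to 103.62), for Ndufs4 (39.57 FPKM, the others 27.27 to 30.41) and for Uqcr10 (65.43 FPKM, the others 55.25 to 57.86). In LPS+CLA, replicate 2 was the lowest for Atp5a1 (186.86 FPKM, the others 215.76 to 222.57), Atp5h (118.58 FPKM, the others 134.71 to 141.22) and Ndufa13 (24.34 FPKM, the others 28.07 to 30.3). The same library had the lowest mean log2(FPKM + 1) over complex II (6.17, the others 6.31 to 6.37). Cox6b2 was at 0.39 FPKM in LPS+CLA replicate 4 and at most 0.1 FPKM in the others.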

How the results depend on the processing

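The rises with bafilomycin A1 and with CLA kept their direction under every alternative run: between 58 and 70 genes were higher with bafilomycin A1 and between 64 and 74 with CLA. The shares of all genes higher in these runs were 23.4% to 38.2% and 29.1% to 47.1%. The 1 lower gene, Cox6a2, does not reach the filter of 5 FPKM, so 0 were lower there in both comparisons and in LPS+siAtg5 against LPS. Leaving out 1 library at a time gave 58 to 68 higher genes with bafilomycin A1 (29.3% to 31.8% of all genes) and 67 to 73 with CLA (37.8% to 42.5%). It gave 34 to 37 in LPS+siAtg5 against LPS+dNC (57.4% to 59.1%), so the share of members was below that of all genes. The counts were 71 to 75 in LPS+siAtg5 against LPS (58.3% to 60.4%) and 43 to 47 in LPS+dNC against LPS (26.1% to 30.7%). In LPS+CLA against LPS+Baf A1 they were 27 to 43 (33.1% to 37.7%), so the lowest count was near the background. For the bafilomycin effect minus the knockdown effect, the median of the set minus that of all genes was 0.58. It ran from 0.49 to 0.67 when 1 library at a time was left out.

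Median-of-ratios scaling gave 23 higher and 38 lower genes in LPS+siAtg5 against LPS+dNC, 30 higher and 3 lower in LPS+siAtg5 against LPS, and 19 higher and 8 lower in LPS+CLA against LPS+Baf A1. Between the bafilomycin and knockdown effects, this scaling gave 50 positive and 7 negative differences, against 31.1% and 38.7% of all genes. It turned the differences of Uqcrb (-0.02) and Cox8a (-0.17) in LPS+siAtg5 against LPS, and that of Atp5b between the 2 effects (0.09). Quantile normalization gave 25 higher and 5 lower genes in LPS+CLA against LPS+Baf A1, against 27.9% and 23.3% of all genes. Under it, the median of the set minus that of all genes was 0.11 in LPS+siAtg5 against LPS+dNC, where it had been -0.23, 0.43 in LPS+siAtg5 against LPS and 0.24 for the difference of effects. Without a filter it was -0.10 in LPS+siAtg5 against LPS+dNC and 0.45 for the difference of effects. Fitted on the compared groups alone, LPS+dNC against LPS had 6 lower genes. Why these values moved was not tested, apart from the fewer genes that the filter leaves.

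Libraries with the same replicate number did not clearly deviate together (correlations from -0.131 to 0.155). LPS and LPS+dNC have only 3 libraries each, 1 of which stood apart, so these correlations cannot exclude a pairing. With the replicate number as a block, 65 genes were higher and 1 lower with bafilomycin A1 (all genes 30.4% and 24.0%). With CLA they were 70 and 1 (37.6% and 20.7%). The counts were 35 and 23 in LPS+siAtg5 against LPS+dNC (58.0% and 21.1%), and 73 and 1 in LPS+siAtg5 against LPS (59.4% and 14.7%). They were 45 and 12 in LPS+dNC against LPS (28.1% and 27.0%), and 27 and 3 in LPS+CLA against LPS+Baf A1 (33.0% and 17.6%). For the difference of effects they were 38 and 14 (20.1% and 51.6%). The higher share was thus below that of all genes for LPS+siAtg5 against LPS+dNC and near it for LPS+CLA against LPS+Baf A1. Without counts, precision at low levels, such as those of Cox6a2 and Cox6b2, cannot be judged.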

Other observations

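Ndufa4 has a paralogue listed in the table as AA467197, a RefSeq synonym of Nmes1, whose protein is known to take the place of the Ndufa4 protein in complex IV of activated macrophages. It was looked up after the Ndufa4 values had been seen. Its level was 62.0 ± 16.3 FPKM (SD, n = 3) in LPS, 35.0 ± 2.08 (n = 5) in LPS+Baf A1, 7.50 ± 0.33 (n = 6) in LPS+CLA, 11.7 ± 2.39 (n = 5) in LPS+siAtg5 and 293 ± 73.6 (n = 3) in LPS+dNC. No library of LPS+CLA (7.05 to 7.96 FPKM), LPS+siAtg5 (9.52 to 14.6) or LPS+Baf A1 (33.3 to 38.0) reached the LPS libraries (46.2, 61.1 and 78.7). The log2 differences of AA467197 were -2.86 in LPS+CLA against LPS (limma adjusted p = 3.26e-13), -0.78 in LPS+Baf A1 against LPS (adjusted p = 0.000179) and -4.53 in LPS+siAtg5 against LPS+dNC (adjusted p = 7.85e-17). Ndufa4 had means of 40.0, 57.2, 86.6, 90.2 and 114.6 FPKM in LPS, LPS+Baf A1, LPS+CLA, LPS+siAtg5 and LPS+dNC. Both genes were thus at their highest in LPS+dNC, and among the other groups the highest Ndufa4 means went with low AA467197 means.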
